A study of Ambystoma mexicanum with 12 samples.

Results

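The comparison described here is that of uninjured axolotl (Ambystoma mexicanum) spinal cords given an antisense inhibitor of miR-200a against uninjured cords given a control inhibitor. It used 6 of the 12 RNA-seq libraries of the series, chosen by their titles: inhibitor libraries 5, 6 and 7 and control libraries 1, S2 and 5, where S2 has no replicate number of its own. Of 15091 genes in the deposited table, the 14764 with at least 0.5 TPM, the deposited unit of transcript abundance, in 3 of the 12 libraries were compared. By the labels, each library pooled tissue of 10 animals of 2 to 3 cm and the solution was injected into the central canal, whereas the study describes electroporated tissue and larger animals. The time between injection and collection of the uninjured cords was not stated in these sources. The remaining libraries came from inhibitor and control cords at 4 days post injury (dpi), 3 of each, and entered the estimate of the spread and 1 comparison below. Nothing in the sources says that the pools of a group were raised or treated separately, so the p-values measure only the spread between these libraries. The tissue was sampled whole, so fewer cells of a type and less RNA per cell cannot be told apart. The level of miR-200a itself was not analysed here.

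MicroRNAs guide Argonaute proteins to matching sites in mRNAs and lower the stability or the translation of those mRNAs. miR-200a belongs to a family best known for holding epithelial cells in their state through repression of ZEB1 and ZEB2. In the axolotl cord the stem cells are ependymoglia, radial cells around the central canal that carry SOX2 and GFAP and give rise to neurons and glia.

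Markers of the spinal cord were present in all 6 libraries. The 10 ependymoglia markers held 0.121% to 0.17% of all TPM in inhibitor libraries, against 0.116% to 0.497% in control libraries, and the 10 neuron markers held 0.214% to 0.313% against 0.222% to 1.25%. The control libraries were uneven among themselves. Library 1 held the most neuron, ependymoglia and oligodendrocyte transcripts, and library S2 held the most skeletal muscle transcripts (3.8% of TPM, against 0.327% to 0.818% in inhibitor libraries). The correlation between 2 replicates, taken over all kept genes, was 0.953 to 0.976 among inhibitor libraries and 0.820 to 0.908 among control libraries.

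The unit shares out a constant sum within each library, and in the inhibitor libraries more of it lay in the 100 most abundant genes. These held 40.2%, 41.9% and 41.1% of TPM in inhibitor libraries 5, 6 and 7, against 23.4%, 36.3% and 34.7% in control libraries 1, S2 and 5. The median kept gene stood at 5.20, 6.30 and 4.85 TPM in the inhibitor libraries and at 17.6, 10.8 and 10.5 TPM in the control libraries. Neither measure overlapped between groups, whereas the share of the 10 most abundant genes did (15.6% to 19.9% in inhibitor and 8.88% to 17.1% in control libraries). Every change is therefore given in 2 ways, on the deposited TPM and after each library was divided by the TPM of its median gene. A gene was called where its log2 fold change passed 1 in size with an adjusted p below 0.05 in limma, a linear model that shares the estimate of the spread across genes, fitted to log2(TPM + 0.5). Fold changes are inhibitor over control on that scale, on which the pseudocount shrinks the change of weakly expressed genes. Read depth cannot be recovered from TPM and is unknown.

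On the deposited TPM, 6691 of 14764 genes were called (45.3%), of which 6201 were lower (42%) and 490 higher (3.32%) with the inhibitor. Relative to the median gene, 4174 genes were called (28.3%), of which 2863 were higher (19.4%) and 1311 lower (8.88%). The median gene moved by −0.997 on the log2 scale on the deposited TPM and by 0.0573 after scaling, and the lower share of called genes was 92.7% and 31.4%. Other scalings gave other splits, with 2222 genes higher and 1950 lower under median-of-ratios, 1841 and 2376 under upper-quartile scaling, and 1679 and 1123 under quantile normalization. The median over all genes was then −0.18, −0.33 and −0.02. All 490 genes higher on the deposited TPM were also higher relative to the median gene, and all 1311 genes lower relative to the median gene were also lower on the deposited TPM. These 1801 calls did not depend on which of the 2 scalings is chosen, and the results below turn on them. Since scaling multiplies a whole library by 1 factor, the 2 calls of a gene are not independent of each other. A further 4890 genes (33.1%) were lower on the deposited TPM only and 2373 (16.1%) higher relative to the median gene only, and 5700 were called by neither. The lower calls both ways numbered 625 without inhibitor library 5, 1778 without inhibitor library 6 and 578 without inhibitor library 7. They were 988 without control library 1, 1738 without S2 and 1282 without control library 5. The higher calls both ways numbered 417 to 598 without any 1 library. The part of these shifts over all genes in the list counts given below was not tested.

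**Figure D1:**
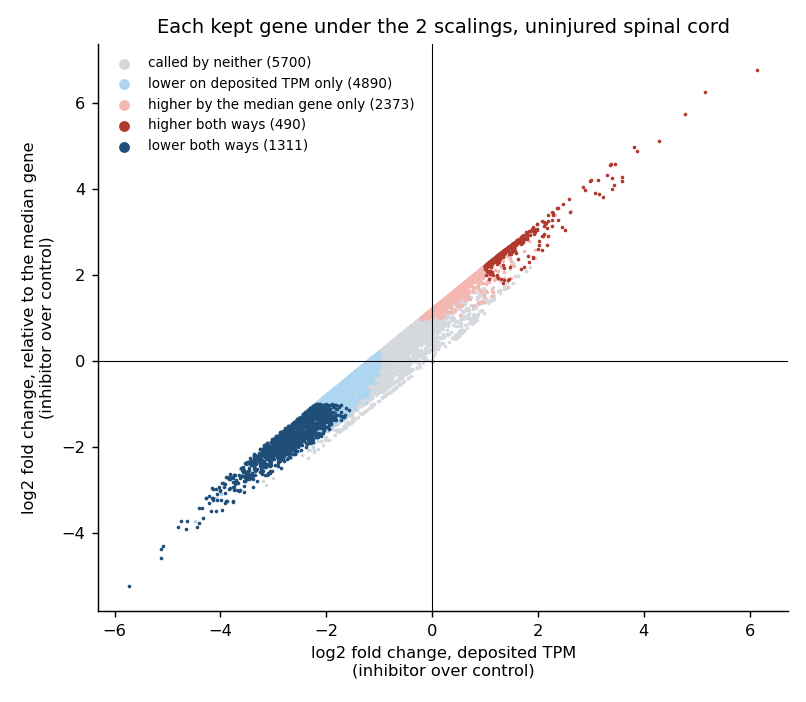
Log2 fold change of each of the 14764 kept genes on the deposited TPM (x axis) and relative to the median gene (y axis), inhibitor over control in uninjured cords. The points form 1 band shifted upward, with 490 genes higher both ways at the top right and 1311 lower both ways at the bottom left.

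The direction of change went with the level of a gene. In the 3691 genes with the highest mean log2 level over the 12 libraries, the median log2 fold change was 1.00 relative to the median gene, with 340 genes higher and 68 lower both ways. In the 3691 genes with the lowest level it was −0.52, with 34 genes higher and 468 lower. Genes higher both ways had a median of 138 TPM in the inhibitor group and 57.8 TPM in the control group, and genes lower both ways had 1.1 TPM in the inhibitor group and 10.7 TPM in the control group. Individual libraries also weighed unevenly on the lower genes. Inhibitor library 6 was the highest of its group for 1168 of the 1311 lower genes, and control library 1 the highest of its group for 1040. The part of expression level and of single libraries in the gene groups below was not tested. Transcript length and RNA quality were not examined.

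**Figure D2:**
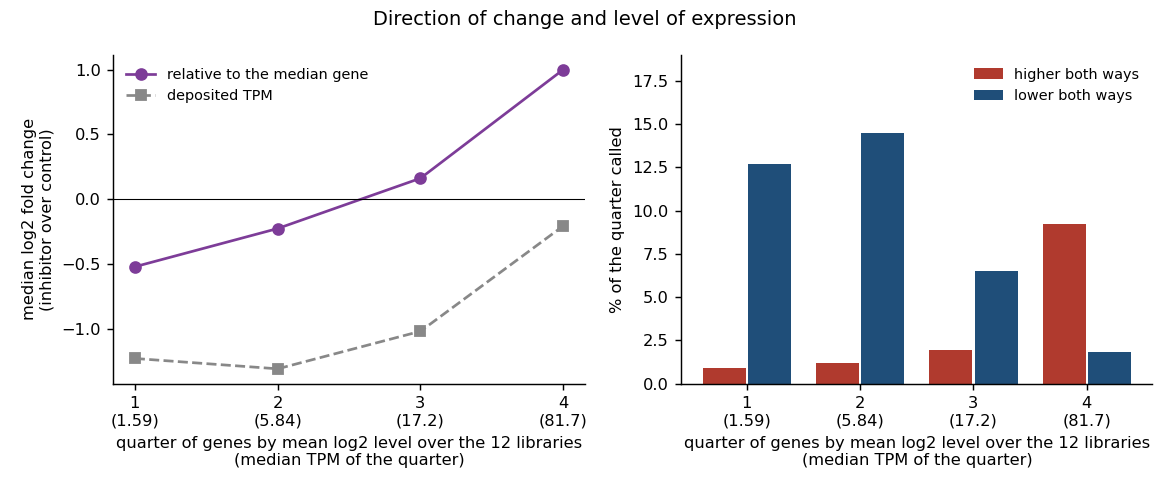
Left, median log2 fold change (inhibitor over control) of 4 groups of 3691 genes ordered by mean log2 level over the 12 libraries, under both scalings; right, percent of each group called both ways. Relative to the median gene the median was −0.52 in the lowest and 1.00 in the highest group, and genes higher both ways made up 0.921% of the lowest and 9.21% of the highest group.

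Nuclear genes of the mitochondrial respiratory chain were frequent among the higher transcripts. A larger family, the cytosolic ribosomal proteins, had 59 of 82 tested members higher and 1 lower both ways (median 2.40 relative to the median gene), and was counted after its values were seen. Of 75 tested members of the respiratory chain, 31 were higher both ways and none was lower, where 3.32% of all genes were higher, and the median of the list was 2.08 relative to the median gene and 0.86 on the deposited TPM. The list held 9.56%, 9.17% and 10% of TPM in inhibitor libraries 5, 6 and 7, and 4.18%, 5.15% and 5.51% in control libraries 1, S2 and 5, with no overlap. ATP5I, a small subunit of ATP synthase, stood at 8159, 7753 and 8828 TPM in inhibitor and at 2303, 3359 and 3025 TPM in control libraries (log2 fold change 1.53, SE 0.21, on the deposited TPM and 2.74 relative to the median gene, limma adjusted p = 0.00150 and 0.00203). COX7B, a subunit of cytochrome c oxidase, reached 624, 642 and 649 TPM with the inhibitor and 209.7, 272 and 229 TPM in control (deposited log2 fold change 1.43, SE 0.19, limma adjusted p = 0.00136). The complex I subunits NDUFC1 and NDUFS6, the oxidase subunit COX7C and the complex III subunit UQCR10 were likewise higher both ways, by 1.15 to 1.37 on the deposited TPM. The inhibitor libraries of each of these 6 genes lay above every control library, as did those of 8.49% of all kept genes on the deposited TPM, while 48.9% of all kept genes lay below. The list's count was 21 without control library 1 and 30 to 34 without any other library, and under quantile normalization 17 members were higher and 4 lower. ATP5I, COX7C and UQCR10 were not called under that normalization. With replicate number added to the fit as a block, the list's count both ways was 17.

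Proteins of the ribosome that translates the genes of the organelle were higher in part. Of 75 tested mitochondrial ribosomal proteins, 16 were higher both ways, against 3.32% of all genes, and none was lower. Relative to the median gene 56 were higher (median 1.80), against 19.4% of all genes. On the deposited TPM 9 were lower, against 42% of all genes. MRPL53, a protein of the large subunit, had 126, 110 and 110.1 TPM in inhibitor against 42.7, 44.6 and 41.8 TPM in control libraries (deposited log2 fold change 1.41, SE 0.21, limma adjusted p = 0.00180). MRPS33 of the small subunit had 969, 859.9 and 936 TPM against 366, 385 and 430 TPM (log2 fold change 1.23, SE 0.2, limma adjusted p = 0.00190). For both genes the replicates of a group lay close together and the groups stood well apart.

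Some subunits of the proteasome, the particle that degrades tagged proteins, and of folding complexes were higher both ways, as were 3.32% of all genes. Of 16 tested subunits of the proteasome core, 6 were higher both ways (PSMA2, PSMA3, PSMA4, PSMA7, PSMB1 and PSMB3) and 1 was lower. PSMA4 stood at 1022, 1015 and 986 TPM with the inhibitor and at 370.0, 429 and 439 TPM in control (log2 fold change 1.29 deposited and 2.51 relative to the median gene, limma adjusted p = 0.00221 and 0.00215). The lower subunit was PSMB8, which replaces a standard catalytic subunit in the immunoproteasome, at 0.101, 1.07 and 0 TPM in inhibitor against 5.35, 5.58 and 2.7 TPM in control libraries (log2 fold change −2.64 and −1.99, limma adjusted p = 0.00292 and 0.00786). Of 22 tested subunits of the regulatory particle, 2 were higher both ways, PSMD12 and SHFM1. A further 5 were lower on the deposited TPM, where 42% of all genes were. Of 39 heat shock proteins and chaperonin subunits, 4 were higher and none lower both ways. On the deposited TPM 9 were lower, against 42% of all genes. Among the higher members was PFDN1, a subunit of the prefoldin that hands nascent chains to the chaperonin (944, 1059 and 792 TPM in inhibitor, against 359.2, 359.2 and 459 TPM in control libraries). The call of PSMA3 was lost without inhibitor library 7 and without control library 1, and that of PSMD12 without inhibitor library 6 and without control library S2, whereas those of PSMA4, SHFM1, PFDN1 and PSMB8 held without any 1 library. With replicate number as a block, 1 core subunit was higher both ways. SHFM1 was then not called on the deposited TPM, and PSMB8 not relative to the median gene. The chaperone count was 2 without inhibitor library 5.

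In RNA polymerase II, which transcribes mRNA, the largest subunit moved against most of the others relative to the median gene. All 12 subunits were tested: POLR2H, POLR2I, POLR2J and POLR2K were higher both ways, POLR2A was lower both ways, and the other 7 were not called both ways. Of all genes 3.32% were higher and 8.88% lower both ways. Relative to the median gene 10 subunits were higher, where 19.4% of all genes were, and only POLR2A was lower. POLR2A, the largest subunit and the one with the catalytic centre, was listed at 0.0835, 1.22 and 0.0507 TPM in inhibitor libraries 5, 6 and 7, against 19.5, 5.13 and 5.94 TPM in control libraries 1, S2 and 5. Its log2 fold change was −3.45 on the deposited TPM (SE 0.65) and −2.74 relative to the median gene, with a limma adjusted p of 0.00241 and 0.00321. POLR2I had 202, 199.5 and 179 TPM with the inhibitor and 90.4, 90.5 and 80.5 TPM in control (log2 fold change 1.15 and 2.36, limma adjusted p = 0.00222 and 0.00154). POLR2B, the second largest subunit, had 12.4, 12.2 and 18.6 TPM in inhibitor and 49.98, 29.0 and 41.8 TPM in control libraries and was lower on the deposited TPM only (log2 fold change −1.44, limma adjusted p = 0.00362, and −0.25 with adjusted p = 0.512 relative to the median gene). In none of these 3 genes did the groups overlap on the deposited TPM, where 8.49% of all kept genes lay wholly above control and 48.9% wholly below. POLR2A, POLR2B and POLR2K were singled out after their values were seen. The call of POLR2J was lost without inhibitor library 7 and without control library S2, and those of POLR2A, POLR2H, POLR2I and POLR2K held without any 1 library.

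**Figure D3:**
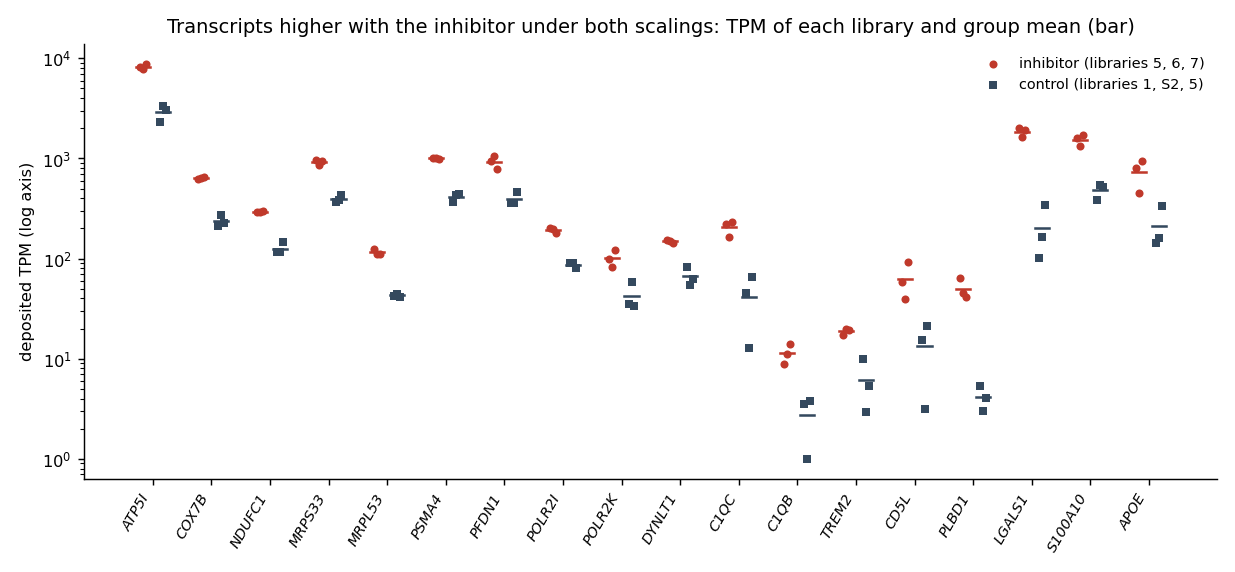
Deposited TPM (log axis) of 18 transcripts higher with the inhibitor under both scalings, in each inhibitor library (red circles) and each control library (dark squares), with bars at the group means. In each gene shown the inhibitor libraries lie above the control libraries, among them C1QB (8.84 to 14 against 0.998 to 3.76 TPM) and ATP5I (7753 to 8828 against 2303 to 3359 TPM).

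Several transcripts known from macrophages and microglia, the phagocytes of the nervous system, were higher both ways, though no list of such genes was tested. C1QC, a chain of the complement protein C1q that these cells make, stood at 220, 165 and 233 TPM in inhibitor and at 45.7, 12.8 and 64.9 TPM in control libraries (log2 fold change 2.58, SE 0.44, deposited and 3.78 relative to the median gene, limma adjusted p = 0.00195 and 0.000904). C1QB had 8.84, 11.3 and 14 TPM against 3.50, 0.998 and 3.76 TPM, and neither gene overlapped between groups. C1QA, the remaining chain of C1q, had 40.03, 38.4 and 20.8 TPM in inhibitor and 48.7, 0.879 and 21.7 TPM in control libraries and was called relative to the median gene only. Of 25 tested complement genes, 4 were higher both ways (C1QB, C1QC, the receptor C5AR1 and the inhibitor SERPING1) and 3 were lower (C1S, C2 and MASP1, proteases of the cascade). Of all genes 3.32% were higher and 8.88% lower both ways, so the lower count lay near the share of all genes. A further 4 genes of these cells were picked after their values were seen, namely TREM2, a receptor of microglia, AIF1, a cytoskeletal protein of microglia and macrophages, CD5L, a protein secreted by macrophages, and APOE, a lipid carrier. TREM2 had 17.2, 19.7 and 19.3 TPM with the inhibitor and 10.0, 2.93 and 5.36 TPM in control (log2 fold change 1.69 and 2.84, limma adjusted p = 0.00526 and 0.000195). AIF1 had 177, 125 and 226 TPM against 103, 23.4 and 72.3 TPM, CD5L had 57.7, 39.2 and 92.3 TPM against 15.6, 3.14 and 21.1 TPM, and APOE had 799.8, 454 and 941 TPM against 142, 162 and 336 TPM. In each of these 4 genes the lowest inhibitor library lay above the highest control library, as in 8.49% of all kept genes on the deposited TPM. Of 8 leukocyte markers, 4 were higher both ways, where 3.32% of all genes were, and none was lower both ways. Of these markers, 1 was lower on the deposited TPM, where 42% of all genes were. Their summed level was 0.078% to 0.0965% of TPM in inhibitor libraries and 0.0333% to 0.105% in control libraries, where library S2 was the highest. The erythroid markers, of which 5 were tested, held 0.0136% to 0.0291% in inhibitor and 0.00156% to 0.00326% in control libraries, and GATA1, which defines the lineage, was listed at 0 in all 3 inhibitor libraries and in control libraries S2 and 5. The only erythroid marker called both ways was the globin HBD, at 152.6, 282 and 133 TPM in inhibitor and 4.85, 0.562 and 21.9 TPM in control libraries. The part of blood or of infiltrating cells in these levels was not tested. Without control library S2 the call of AIF1 was lost, without control library 5 that of C5AR1, that of SERPING1 under 3 of the 6 omissions of 1 library, that of C1S under 3 and that of MASP1 under 5. The complement genes lower both ways numbered 0 without inhibitor library 7 and 1 without inhibitor library 5, inhibitor library 6, control library 1 or control library 5.

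Granule and secreted proteins of blood cells were among the largest increases. PLBD1, a phospholipase of granulocytes, had 63.4, 45.0 and 41.8 TPM with the inhibitor and 5.32, 2.99 and 4.10 TPM in control (log2 fold change 3.45, SE 0.26, and 4.59 relative to the median gene, limma adjusted p = 4.02e-05 and 1.22e-05). CLEC5A, an activating receptor of myeloid cells, had 8.92, 9.34 and 11.7 TPM against 0, 2.15 and 0 TPM. PPBP, a chemokine stored in platelets of mammals, had 34.9, 9.32 and 23.9 TPM against 4.97, 0 and 2.76 TPM. LGALS1, a secreted galectin of many cell types, was far more abundant, at 2014, 1621 and 1921 TPM with the inhibitor and 101, 166 and 346 TPM in control (log2 fold change 3.36 and 4.57, limma adjusted p = 0.000455 and 0.000649). None of these 4 genes overlapped between groups, and each call held without any 1 library. Of all kept genes, 8.49% lay wholly above control on the deposited TPM. The S100 genes, a family of small calcium-binding proteins counted after its values were seen, had 4 of 11 tested members higher both ways and none lower. Of all genes 3.32% were higher both ways. S100A10 had 1583, 1323 and 1708 TPM against 382, 548 and 517 TPM.

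The largest increase was that of TDRD9, a helicase of the piRNA pathway that silences transposons in the germ line of mice. It had 39.4, 23.1 and 46 TPM in inhibitor libraries and was listed at 0 in all 3 control libraries (limma adjusted p = 0.00190 deposited and 0.00178 relative to the median gene). Elsewhere TDRD9 reached 0.5 TPM only in 4 dpi inhibitor library 5 (17.1 TPM). It thus passed the filter through the group where it was high, and these p-values are no support for the rise. The other 11 tested genes of the piRNA pathway were not called both ways. Some leading genes need care. CCDC152, at 271, 147 and 445 TPM in inhibitor and 5.77, 49.7 and 20.2 TPM in control libraries, overlaps the selenoprotein P gene on the opposite strand in humans, and whether reads were counted by strand is not given in the sources used here. MYL10, a myosin light chain, had 3658, 3158 and 2281 TPM in inhibitor and 25.7, 328 and 2680 TPM in control libraries, so the groups overlapped, and its call was lost under 4 of the 6 omissions of 1 library. The next 3 genes, of dividing cells and again chosen after their values were seen, were higher both ways: PCNA, the sliding clamp of DNA replication, the cyclin-dependent kinase subunit CKS2 and the spindle checkpoint gene MAD2L1. Of all genes 3.32% were higher both ways, and no list of genes of dividing cells was counted. PCNA had 178, 171 and 222 TPM against 74.5, 127 and 50.4 TPM, with a deposited log2 fold change of 1.27 (limma adjusted p = 0.00410), and its call was lost without control library 5.

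Turning to transcripts that fell, chromatin regulators made up the longest list with members lower and none higher both ways. Of 68 tested remodelers and histone modifiers, 52 were lower on the deposited TPM, where 42% of all genes were, and 13 both ways, where 8.88% were. The list's median was −1.56 deposited and −0.45 relative to the median gene. CHD2, a chromatin remodeler, stood at 0.787, 2.48 and 0.312 TPM in inhibitor and 21.1, 7.05 and 11.03 TPM in control libraries (log2 fold change −3.08, SE 0.54, and −2.13, limma adjusted p = 0.00213 and 0.00360). INO80, the motor of another remodeler, had 0.632, 1.72 and 0.128 TPM against 13.5, 7.15 and 6.65 TPM. KMT2A, a histone H3 methyltransferase, had 0.457, 1.58 and 0.145 TPM against 10.8, 5.92 and 4.61 TPM. None of these overlapped between groups on the deposited TPM, where 48.9% of all kept genes lay wholly below control. HDAC2, the most abundant member, went the other way relative to the median gene, with 432, 445 and 479.9 TPM in inhibitor and 533, 198 and 437 TPM in control libraries (log2 fold change 0.33 deposited, limma adjusted p = 0.330, and 1.55 relative to the median gene, adjusted p = 0.00521). The count lower both ways was 3 without control library 1, 4 without inhibitor library 5 and 6 without inhibitor library 7, whereas the calls of CHD2, INO80 and KMT2A held without any 1 library. With replicate number added to the fit as a block the count was 2, and INO80 and KMT2A were not called relative to the median gene. Among 29 tested genes of the microRNA machinery, 1 was called both ways, DROSHA, the nuclease that cuts primary microRNA transcripts (0.253, 0.917 and 0.0461 TPM with the inhibitor, against 8.94, 2.99 and 3.15 TPM in control, log2 fold change −2.56 and −1.83, limma adjusted p = 0.00411 and 0.0104). That count lay below the 8.88% of all genes that were lower both ways. It was 3 without inhibitor library 6 or control library S2 and 2 without inhibitor library 7 or control library 5.

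Large cytoskeletal linkers showed a similar picture. Of 23 tested spectrins, ankyrins and cytolinkers, 22 were lower on the deposited TPM, where 42% of all genes were, and 6 both ways, where 8.88% were. None was higher in either. AHNAK, a giant scaffold protein under the plasma membrane, had 6.88, 9.68 and 2.87 TPM with the inhibitor and 38.9, 44.1 and 37.99 TPM in control (log2 fold change −2.69, SE 0.42, and −1.53, limma adjusted p = 0.00185 and 0.00667). PLEC, which ties intermediate filaments to junctions, had 3.8, 5.74 and 3.13 TPM against 36.1, 35.0 and 14.3 TPM. DMD, which links actin to the membrane of muscle and neurons, had 0.103, 0.613 and 0.171 TPM against 5.31, 2.59 and 3.04 TPM. The dynein motors were mixed. The light chains DYNLL1 and DYNLT1 were higher both ways (DYNLT1 at 154, 150 and 144 TPM in inhibitor and 83.2, 55.0 and 61.9 TPM in control libraries), while the axonemal heavy chain DNAH9 was lower, at 0.397, 0.778 and 0.579 TPM against 5.09, 5.22 and 1.86 TPM. Of 32 tested genes of motile cilia and axonemal dyneins, 1 was higher and 1 lower both ways, where 3.32% and 8.88% of all genes were. Each of these counts ranged from 0 to 2 over the omissions of 1 library. Among 42 tested kinesins and cytoplasmic dynein subunits, 2 were higher and 3 lower both ways, near the 3.32% and 8.88% of all genes. None was lower without control library 1, inhibitor library 5 or inhibitor library 7, and 4 were higher without control library 1. The cytolinker count was 3 without inhibitor library 5 and 4 without inhibitor library 7, the call of DYNLL1 was lost without control library 5, and that of DNAH9 lost under 4 of the 6 omissions.

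**Figure D4:**
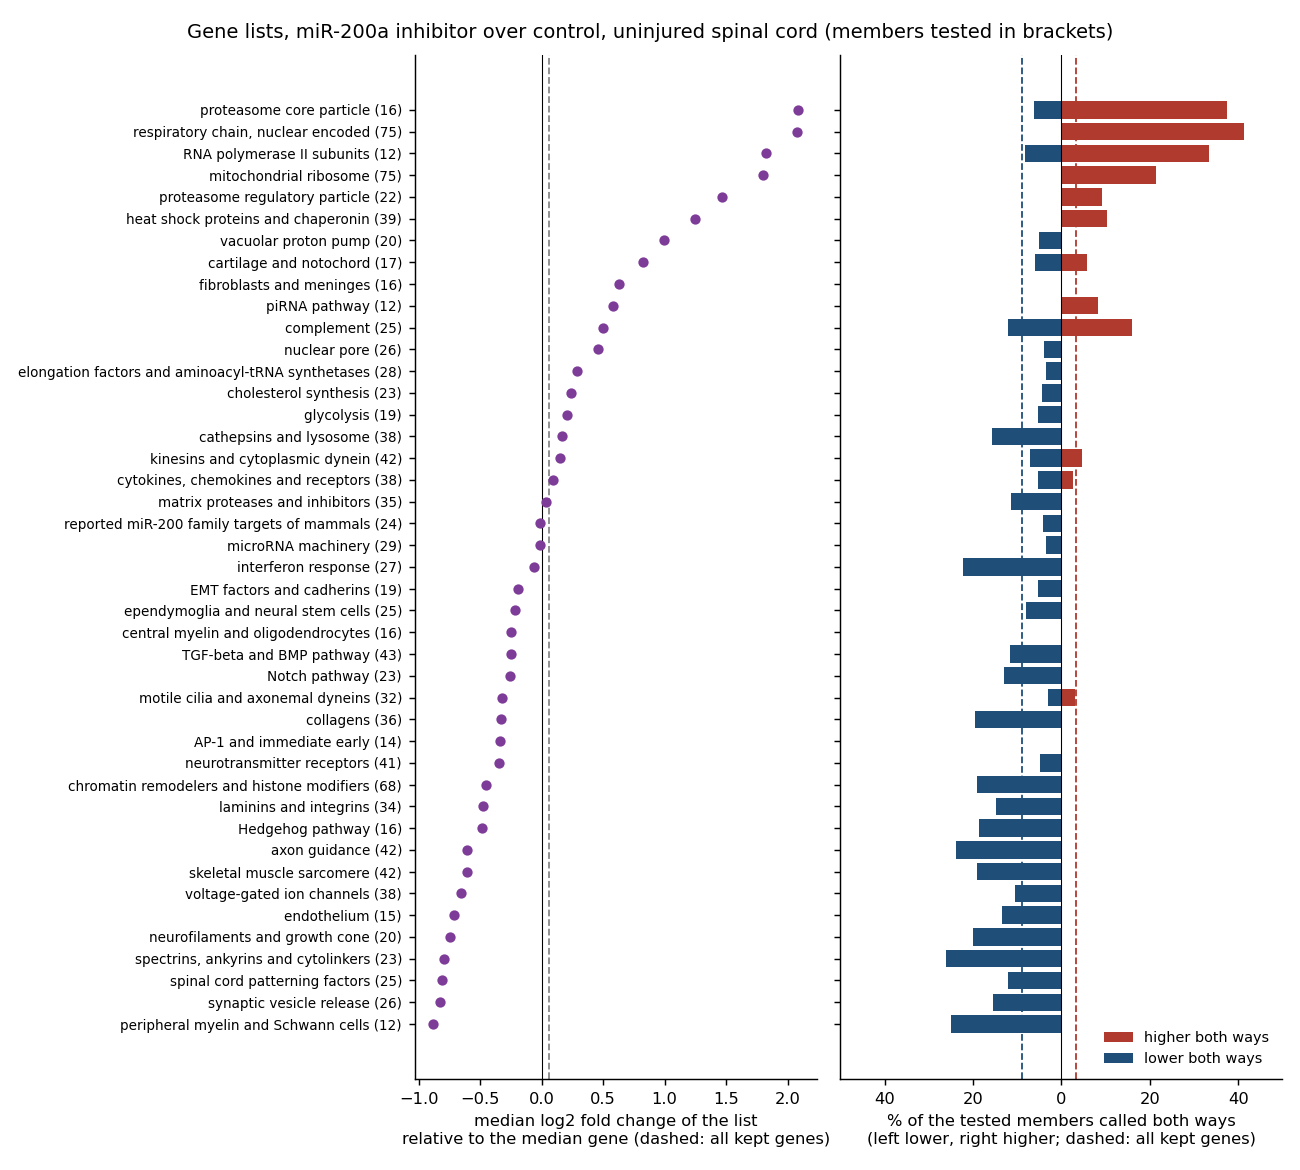
Left, median log2 fold change of each of 43 gene lists relative to the median gene (dashed line, all kept genes at 0.0573); right, percent of the tested members called higher (right) or lower (left) under both scalings, with dashed lines at the 3.32% and 8.88% of all kept genes. Proteasome core, respiratory chain, RNA polymerase II and mitochondrial ribosome lists stand at the top (medians 1.80 to 2.09), and lists of synapse, patterning, Schwann cell and cytolinker genes at the bottom (−0.79 to −0.89).

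Neuronal transcripts were lower in part, and their counts moved with several single libraries. Of 26 tested genes of synaptic vesicle release 4 were lower both ways, of 20 neurofilament and growth cone genes 4, of 38 voltage-gated ion channels 4, of 41 neurotransmitter receptors 2 and of 42 axon guidance genes 10, with none higher, where 8.88% of all genes were lower. The channel and receptor counts lay near or below that share. SEMA3A, a repulsive guidance cue, had 0.751, 1.54 and 0.316 TPM in inhibitor and 32.5, 4.80 and 7.49 TPM in control libraries (log2 fold change −3.13, SE 0.71, and −2.20, limma adjusted p = 0.00486 and 0.0102). Its groups did not overlap, nor did those of PLXNB2, a semaphorin receptor, at 0.217, 0.749 and 0.0395 TPM against 6.25, 3.77 and 2.59 TPM. Of all kept genes, 48.9% lay wholly below control on the deposited TPM. NEFH, the heavy neurofilament chain, had 8.06, 15.1 and 2.18 TPM against 652, 30.1 and 96.7 TPM (log2 fold change −4.13 and −2.97, limma adjusted p = 0.00653 and 0.0208). SYP, a protein of synaptic vesicles, had 12.5, 53.3 and 12.2 TPM against 775, 64.0 and 153 TPM. In both genes the highest value by far was that of control library 1, and SNAP25, a fusion protein of the synapse, was not called (257, 207 and 312 TPM with the inhibitor, against 709, 126 and 354 TPM in control). RBFOX3, the splicing factor known as NeuN that marks mature neurons, was lower both ways, at 1.01, 2.81 and 1.38 TPM against 44.1, 18.3 and 6.33 TPM (log2 fold change −3.08, SE 0.61, and −2.03, limma adjusted p = 0.00283 and 0.00596), and so was the proneural factor NEUROG1, at 0, 1.44 and 0 TPM against 29.3, 6.21 and 7.44 TPM. Without control library 1 the counts were 0 for vesicle release, 0 for neurofilaments, 3 for channels and 3 for axon guidance. Without inhibitor library 5 they were 0, 1, 1 and 3, without inhibitor library 7 they were 0, 0, 2 and 2, and without control library 5 they were 0, 1, 2 and 8. Without control library S2 they were 12, 9, 15 and 14, and without inhibitor library 6 they were 8, 6, 9 and 14. Over all genes the lower count both ways also moved, from 1311 to 988, 625, 578, 1282, 1738 and 1778 in the same order of omissions. The receptor count was 10 without control library S2, 4 without inhibitor library 6, 1 without control library 1 and 0 without any other library. The calls of SEMA3A, PLXNB2, RBFOX3 and NEUROG1 held without any 1 library, while that of NEFH was lost without control library 1 or inhibitor library 7, and that of SYP under 4 of the 6 omissions. With replicate number as a block, PLXNB2, RBFOX3 and SYP were not called relative to the median gene.

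Of 25 tested ependymoglial genes, 17 were lower on the deposited TPM, where 42% of all genes were, and 2 both ways, where 8.88% were, and none was higher both ways, with list medians of −1.41 and −0.22. The 2 were SLC1A2, a glutamate transporter of astroglia (0.222, 1.81 and 0.882 TPM in inhibitor and 140, 3.98 and 30.0 TPM in control libraries), and SOX3, a SOX2 relative of neural progenitors (1.24, 6.6 and 0 TPM against 72.8, 13.3 and 17.6 TPM). SOX2 itself had 17.9, 26.8 and 21.98 TPM with the inhibitor and 232, 57.5 and 57.2 TPM in control, and was lower on the deposited TPM (log2 fold change −2.04, SE 0.51, limma adjusted p = 0.00683) but not relative to the median gene (−0.83, SE 0.36, adjusted p = 0.0932). GFAP had 332, 262 and 640 TPM against 2335, 449 and 1041 TPM, so its groups overlapped, and its log2 fold change relative to the median gene was −0.21 (SE 0.47, limma adjusted p = 0.752). The intermediate filament genes NES and VIM, by contrast, were higher relative to the median gene only, with VIM at 441, 376 and 534 TPM in inhibitor and 465, 230 and 384 TPM in control libraries (limma adjusted p = 0.00248). The calls of SLC1A2 and SOX3 both ended without control library 1, without control library 5 and without inhibitor library 5 or 7, and that of SOX3 also without control library S2.

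Genes of patterning and of 3 signaling pathways included members lower both ways, as did 8.88% of all genes. The motor neuron factors MNX1 and ISL2 and the interneuron factor LHX1 were the 3 of 25 patterning factors lower both ways, with MNX1 at 2.04, 1.75 and 1.98 TPM in inhibitor and 31.0, 8.89 and 5.92 TPM in control libraries (log2 fold change −2.36 and −1.27, limma adjusted p = 0.00531 and 0.0292). The call of MNX1 ended without control library 1 and without any 1 of the inhibitor libraries, and those of ISL2 and LHX1 without control library 1 and without inhibitor library 5 or 7, that of LHX1 also without control library 5. The patterning count was 0 without control library 1, 1 without inhibitor library 5 or 7, 5 without control library S2 and 8 without control library 5. In the Hedgehog pathway, which patterns the ventral cord, 3 of 16 tested genes were lower both ways, among them the receptor PTCH1 and the coreceptor CDON. PTCH1 had 0.969, 4.01 and 0.0918 TPM in inhibitor and 30.2, 6.18 and 10.2 TPM in control libraries (log2 fold change −3.04 and −2.15, limma adjusted p = 0.00555 and 0.0245). SHH, the ligand, had 14.5, 19.1 and 19.9 TPM against 98.1, 24.4 and 33.7 TPM and was lower on the deposited TPM only. In the Notch pathway, which keeps progenitors from differentiating, the receptor NOTCH2, NRARP and HES6 were lower both ways among 23 tested genes. The HES genes HES1 and HES5, chosen after their values were seen, were lower on the deposited TPM only (log2 fold change 0.08 in each relative to the median gene). NRARP, a feedback inhibitor, had 9.53, 13.7 and 4.41 TPM against 99.4, 47.5 and 33.0 TPM (log2 fold change −2.62 and −1.44, limma adjusted p = 0.00227 and 0.00771). In the TGF-beta and BMP pathway 5 of 43 genes were lower both ways, among them SMAD1, which carries the BMP signal to the nucleus, and the receptor BMPR2. Relative to the median gene 3 others were higher, where 19.4% of all genes were. The counts of the patterning, Notch and TGF-beta and BMP lists lay near the share of all genes and are no result about these lists. On the deposited TPM the groups of these named genes did not overlap, and 48.9% of all kept genes lay wholly below control. Relative to the median gene, where 13.4% did, LHX1 and PTCH1 were among the genes that overlapped (for LHX1, inhibitor library 6 at 3.295, control library S2 at 3.129). SHH, HES1 and HES5 overlapped as well (for SHH, inhibitor library 7 at 34.88, control library S2 at 19.18). Without control library 1 the Hedgehog count was 0, the Notch count 1, and the TGF-beta and BMP count 3. They were 0, 1 and 2 without inhibitor library 5 or without inhibitor library 7, and 4, 5 and 8 without inhibitor library 6, while the calls of NRARP, SMAD1 and BMPR2 held without any 1 library. With replicate number as a block the 3 counts were 0, 0 and 2, and NRARP was not called relative to the median gene.

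**Figure D5:**
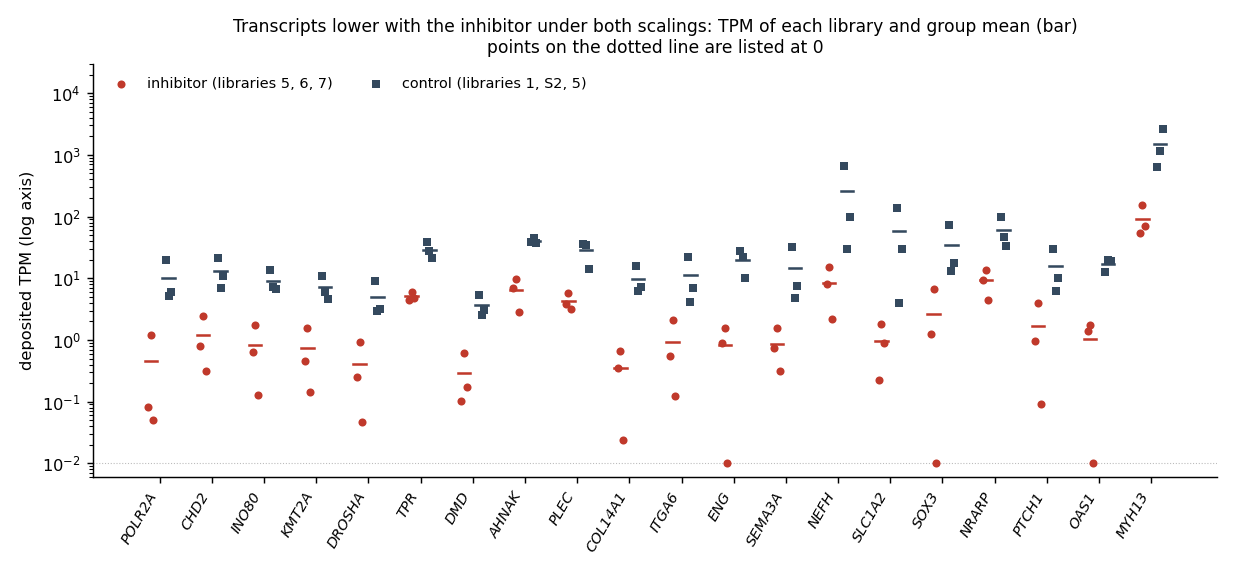
Deposited TPM (log axis) of 20 transcripts lower with the inhibitor under both scalings, in each inhibitor library (red circles) and each control library (dark squares), with bars at the group means; values listed at 0 are drawn on the dotted line. In each gene shown the inhibitor libraries lie below the control libraries, and the spread is wide in NEFH (2.18 to 15.1 against 30.1 to 652 TPM) and narrow in AHNAK (2.87 to 9.68 against 37.99 to 44.1 TPM).

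Matrix, epithelial and muscle transcripts were also represented among those lower both ways, as were 8.88% of all genes. Of 36 tested collagens 7 were lower and none higher, with COL14A1, a fibril-associated collagen, at 0.346, 0.670 and 0.0242 TPM in inhibitor and 15.6, 6.18 and 7.16 TPM in control libraries (log2 fold change −3.54, SE 0.63, and −2.79, limma adjusted p = 0.00215 and 0.00240). COL3A1, the most abundant collagen, stood at 669, 831 and 491 TPM with the inhibitor and 499, 304 and 421 TPM in control and was higher relative to the median gene only (log2 fold change 1.92, limma adjusted p = 0.00163). Of 34 laminins and integrins 5 were lower both ways, including ITGA6, the laminin receptor of basal and stem cells (0.557, 2.08 and 0.121 TPM against 22.4, 4.13 and 6.99 TPM). That count lay near the share of all genes and is no result about the list. ENG, a TGF-beta coreceptor of endothelium, had 0.881, 1.59 and 0 TPM against 28.1, 22.2 and 9.95 TPM (log2 fold change −4.07 and −3.24, limma adjusted p = 0.00190 and 0.00287). Of 15 tested endothelial genes 2 were lower both ways, near the share of all genes, and none of the 7 endothelium markers was called both ways. The count of 2 became 1 without control library 1 or 5 or inhibitor library 5 or 7, and 4 without control library S2. Epidermal genes followed, with KRT1, a keratin of outer skin layers in mammals, listed at 0 in all 3 inhibitor libraries and at 9.94, 46.3 and 10.1 TPM in control libraries, and COL17A1, an anchor of basal keratinocytes, at 0.962, 4.61 and 0.0877 TPM against 60.3, 58.1 and 18.3 TPM. The 7 epidermal markers held 0.0192% to 0.0353% of TPM in inhibitor libraries and 0.0375% to 0.111% in control libraries. Of 42 sarcomere genes of skeletal muscle 32 were lower on the deposited TPM, where 42% of all genes were, and 8 both ways. MYH13, a fast myosin heavy chain, had 53.4, 154 and 71.6 TPM against 643, 1161 and 2656 TPM (log2 fold change −3.90 and −2.68, limma adjusted p = 0.00175 and 0.00541). The 8 muscle markers held 0.327% to 0.818% of TPM in inhibitor and 0.865% to 3.8% in control libraries. The part of skin or muscle taken along at dissection was not tested. The sarcomere count was 26 without control library 1, 3 without S2 and 1 without inhibitor library 5 or 7, and without control library 5 it was 3, with 5 other sarcomere genes higher both ways. The collagen count was 4 without inhibitor library 5 and 3 without inhibitor library 7, and the call of KRT1 was lost without S2.

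Myelin transcripts were listed by the cell that makes them. None of the 16 tested genes of central myelin and oligodendrocytes was called both ways, and MBP, the main basic protein of myelin, had 698, 1601 and 299 TPM in inhibitor and 5699, 498 and 2588 TPM in control libraries, so the groups overlapped. Among 12 genes of peripheral myelin and Schwann cells 3 were lower both ways, against 8.88% of all genes, including POU3F1, which starts the myelination program of Schwann cells (1.39, 1.48 and 0.505 TPM against 47.2, 6.82 and 12.7 TPM, log2 fold change −3.42 and −2.42, limma adjusted p = 0.00239 and 0.00349), and the neurotrophin receptor NGFR (1.86, 5.24 and 1.05 TPM against 44.0, 16.1 and 13.6 TPM). Without control library S2, 5 of the central myelin genes were lower both ways. The difference between the 2 lists was not tested.

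Antiviral and lysosomal genes were lower in part. Of 27 tested genes of the interferon response 6 were lower both ways, against 8.88% of all genes, and none higher (OAS1, OASL, DHX58, TAP1, PSMB8 and STAT2). OAS1, a sensor of double-stranded RNA, had 1.4, 1.74 and 0 TPM with the inhibitor and 12.8, 19.6 and 19.1 TPM in control (log2 fold change −3.76, SE 0.58, and −2.91, limma adjusted p = 0.00185 and 0.00528), and DHX58, a helicase of the RIG-I family, had 0.154, 0.412 and 0 TPM against 7.16, 3.56 and 3.42 TPM. B2M, the invariant chain of MHC class I and the most abundant member, had 1538, 879.9 and 938 TPM against 359, 1335 and 1042 TPM and was higher relative to the median gene only (limma adjusted p = 0.0466). Of 38 cathepsins and lysosomal genes 6 were lower both ways, where 8.88% of all genes were, and 10 were higher relative to the median gene, where 19.4% were. The lower ones included the cathepsin CTSF (0.437, 2.54 and 0.335 TPM against 27.7, 20.1 and 6.75 TPM) and the palmitoyl-protein thioesterase PPT1 (1.02, 6.51 and 0.523 TPM against 30.9, 21.2 and 17.2 TPM). CTSB, the most abundant, had 586, 549 and 536 TPM against 435, 408 and 439 TPM and was higher relative to the median gene only, by 1.60 (limma adjusted p = 0.00377). Without inhibitor library 5 or 7 the lysosomal count was 2 and 3. In both lists the groups did not overlap in any of the 4 lower genes named with values. On the deposited TPM 48.9% of all kept genes lay wholly below control.

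A further question for a microRNA inhibitor is how reported targets moved. The list used here pooled targets of the miR-200 family and was not limited to those reported for miR-200a. It therefore cannot show how targets of miR-200a alone moved. Of 24 genes reported as targets of the miR-200 family, mostly in mammals, none was higher both ways, 5 were higher relative to the median gene only, where 19.4% of all genes were higher, 12 were lower on the deposited TPM, where 42% were, and 1, TUBB3, was lower both ways, a call that was lost under 4 of the 6 omissions of 1 library. Without control library S2, 1 target was higher both ways, and without inhibitor library 6, 3 were lower. The list's median was −0.01 relative to the median gene, where that of all genes was 0.0573, and −1.10 deposited, where that of all genes was −0.997. ZEB1 had 17.1, 24.6 and 13.1 TPM in inhibitor and 33.6, 12.04 and 33.8 TPM in control libraries, and ZEB2 had 5.43, 8.52 and 5.18 TPM against 24.7, 6.03 and 11.2 TPM. Both overlapped between groups and were called under neither scaling (log2 fold change 0.76, SE 0.36, and 0.27, SE 0.3, relative to the median gene, limma adjusted p = 0.1198 and 0.512). JUN, which encodes an AP-1 subunit, had 21.4, 33.8 and 27.1 TPM against 70.8, 63.0 and 32.9 TPM (−0.95, SE 0.35, deposited, limma adjusted p = 0.0340, and 0.25, SE 0.28, adjusted p = 0.508). CTNNB1, which encodes β-catenin, had 58.5, 59.9 and 69.2 TPM against 201, 91.1 and 108 TPM and passed on the deposited TPM only (−1.004, SE 0.29, limma adjusted p = 0.0142, and 0.21, SE 0.22, adjusted p = 0.492). CFL2, a cofilin that severs actin filaments and the most abundant of the 24, was higher relative to the median gene only, at 5904, 5284 and 4923 TPM against 2979, 3313 and 3412 TPM (log2 fold change 1.95, limma adjusted p = 0.00488). The study reported miR-200a seed sequences in the untranslated regions of axolotl brachyury and CTNNB1, with reporter assays for both. It also cited earlier work that named JUN a direct target in the axolotl cord. Sites for miR-200a in these transcripts were not analysed here.

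Brachyury (T), the mesodermal factor at the centre of the study, was at low levels in uninjured cords. It had 2.01, 1.76 and 2.58 TPM in inhibitor libraries 5, 6 and 7 and 0.288, 2.39 and 0.337 TPM in control libraries 1, S2 and 5, so that control library S2 lay within the range of the inhibitor libraries. Its log2 fold change was 1.06 on the deposited TPM (SE 0.54, limma adjusted p = 0.108) and 1.85 relative to the median gene (SE 0.51, adjusted p = 0.0158), and the second ranged over 1.42 to 2.59 across alternatives, with adjusted p of 0.00458 to 0.0658. Without inhibitor library 5, inhibitor library 7 or control library 1, and in 2 of the other alternatives, T was not called relative to the median gene. Of the Wnt and FGF ligands that the study followed, WNT3A was lower both ways (0.468, 0.624 and 0.213 TPM against 11.1, 1.26 and 5.73 TPM), WNT5A was lower on the deposited TPM only (2.65, 7.49 and 2.00 TPM against 15.3, 7.29 and 7.60 TPM), and WNT8A, FGF8 and FGF10 were called under neither scaling. FGF10 had 2.36, 4.79 and 2.58 TPM in inhibitor and 4.25, 6.17 and 3.17 TPM in control libraries (limma adjusted p = 0.304 deposited and 0.198 relative to the median gene). The call of WNT3A was lost without control library 1 or 5 and without inhibitor library 5 or 7.

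At 4 dpi the inhibitor was compared with control in separate libraries. Of the 490 genes higher both ways without injury, 483 had a positive log2 fold change at 4 dpi relative to the median gene, where 51.7% of all kept genes did, and of the 1311 lower genes 1093 had a negative one, where 48.2% did. The median change of these groups was 1.41 and −0.39 at 4 dpi, and 2.45 and −1.68 without injury, where it had chosen them. At 4 dpi, too, the median gene stood lower in inhibitor libraries (6.36 to 7.47 TPM) than in control libraries (9.11 to 15.2 TPM). The shares of all kept genes were not matched for expression level, and the part of level in these signs was not tested. The 2 control libraries numbered 1 deviated together from their group means (r 0.506). Each had the highest median gene of its group (17.6 TPM without injury and 15.2 TPM at 4 dpi). Control library 1 was also the highest uninjured control for 1040 of the 1311 lower genes, and the part of these 2 libraries in the signs was not tested. The difference between the inhibitor's effects in the 2 states was tested as an interaction, and 4 of 14764 genes (0.0271%) passed in each scaling. C1QTNF9, a secreted protein related to adiponectin, passed in both, with 0, 1.17 and 0.2 TPM in inhibitor and 47.8, 19.9 and 24.3 TPM in control libraries without injury. PLBD1 also passed in both. The number of genes that passed does not show that the 2 effects were alike, since the interaction carries the spread of 4 groups.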

How the data were processed

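Members and gene lists were chosen with earlier results of these data known. The authors deposited TPM per gene, a unit scaled to a fixed total per library, for human-named axolotl genes. Per the submitters' processing notes, the tools were Bowtie 0.12.1, DESeq2 1.16.1 and RSEM 1.1.6, with the transcriptome build not given in the sources used here. Depth cannot be read from this unit, so count models were not run. From 25 symbols that had become dates the gene was read from its identifier. Genes with at least 0.5 TPM in 3 of 12 libraries were fitted as log2(TPM + 0.5) in limma 3.58.1 (R 4.3.3; variance trend, Benjamini-Hochberg adjustment over 14764 genes), as deposited and after division by each library's median gene. The code was tested on simulated data. Lists got counts and medians, no test. Named genes were the 12 largest changes each way among genes called both ways (averaging 5 TPM or more in whichever group was higher), up to 3 called members with the smallest adjusted p and the most abundant member of each list, genes the study names, and the 12 most abundant genes. Some genes of this rule were left out above. Of the largest decreases these were RPS27L, UPK2, SPOCK2, PRX, CA4, SLC25A18, SLC6A12, CORO1A and KRT7. Of the largest increases they were PRG2, MRPL27, FABP1 and C2orf82. Other members of a list that complete a count or a complex (C1QA, C1S, C2, MASP1, SERPING1, NES, OASL, STAT2, TAP1, PSMA7, PSMB1, PSMB3) and S100A10 were chosen after their values were seen. Alternatives covered pseudocounts, filters, other scalings, fits of 6 libraries, a replicate block, no trend, robust moderation, thresholds and left-out libraries. Figures used matplotlib 3.10.9 under Python 3.11.15.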

Additional observations from a re-analysis of the deposited data

Results flagged for a closer look

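For 6 genes the effect of the inhibitor without injury differed from its effect at 4 dpi by the limma interaction test (adjusted p under 0.05), and all differences below are log2 values of the first effect minus the second. Of these genes, C1QTNF9 and PLBD1 passed under both scalings. The other 4 passed under 1 scaling only, with an adjusted p relative to the median gene of 0.0576 for C1QTNF2 and 0.224 for LYZ, and on the deposited TPM of 0.373 for MARCO and 0.1125 for PLA2G2E. C1QTNF9 differed by −8.52 on the deposited TPM (SE 0.78, adjusted p = 0.00120) and by −8.34 relative to the median gene (adjusted p = 0.000461), with 0, 1.17 and 0.2 TPM in uninjured inhibitor against 47.8, 19.9 and 24.3 TPM in uninjured control libraries, and 17.2, 18.4 and 8.41 TPM in 4 dpi inhibitor against 1.98, 0.798 and 0.278 TPM in 4 dpi control libraries. Its relative C1QTNF2, which may share reads with it, differed by −6.84 on the deposited TPM (adjusted p = 0.0195), with 7.4, 8.45 and 0.906 TPM against 41.0, 104 and 28.5 TPM without injury and 18.6, 30.3 and 32.5 TPM against 2.48, 2.73 and 1.21 TPM at 4 dpi. The inhibitor libraries of both genes thus lay below control without injury and above it at 4 dpi.

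The other 4 genes, of phagocytes or secreted enzymes, differed the other way. PLBD1 differed by 2.98 on the deposited TPM and by 3.39 relative to the median gene (adjusted p = 0.0116 and 0.00758), and LYZ, lysozyme, by 1.97 on the deposited TPM (adjusted p = 0.00857). Neither changed sign, with deposited log2 fold changes at 4 dpi of 0.48 for PLBD1 and 1.03 for LYZ. At 4 dpi PLBD1 had 129.4, 147.7 and 147.8 TPM in inhibitor against 102.3, 79.6 and 128.6 TPM in control libraries. LYZ had 1610, 1744 and 1906 TPM against 807, 954 and 817 TPM. MARCO, a scavenger receptor of macrophages, differed by 2.88 relative to the median gene (adjusted p = 0.0173), with 12.1, 9.67 and 11.4 TPM against 4.21, 1.72 and 2.12 TPM without injury, and 16.6, 24.6 and 19.6 TPM against 51.4, 18.1 and 28.9 TPM at 4 dpi. PLA2G2E, a secreted phospholipase, differed by 4.00 relative to the median gene (adjusted p = 0.00758) and was listed at 4.64, 5.57 and 4.23 TPM in uninjured inhibitor libraries and at 0 in the other 9 libraries. It thus passed the filter only through the group where it was high, and the groups at 0 gave its test no spread. Its p-value is therefore no support for the difference.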

How the results depend on the processing

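On the deposited TPM, 3982 genes were lower in a fit of the 6 uninjured libraries, 1013 were higher by adjusted p alone, and without control libraries 1 and S2 together 316 were higher and 1742 lower. Relative to the median gene, 462 were lower in the fit of 6, 1841 were higher and 2376 lower under upper-quartile scaling, 1679 were higher under quantile normalization, and 221 were higher and 75 lower without control libraries 1 and S2. Both ways, 462 were lower in the fit of 6 (453 of them among the 1311), 1013 higher by adjusted p alone, and 150 higher and 75 lower without those 2 libraries, where the lone control is assumed to vary like the other groups. With each of the 6 libraries left out in turn, 417 to 598 genes were higher and 4310 to 7106 lower on the deposited TPM, 2205 to 3194 higher and 578 to 1778 lower relative to the median gene, and 417 to 598 higher and 578 to 1778 lower both ways. Of the 490 higher genes 290 and of the 1311 lower genes 451 were called both ways without any 1 library.

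The titles share replicate numbers between groups, but same-numbered libraries did not deviate together in every pair (r of their deviations from the group means −0.285 to 0.506, the highest between the 2 control libraries numbered 1, and 0.0922 for the only number shared by the 2 uninjured groups), so the numbers were not taken to pair the libraries. Adding the replicate block gave 345 higher and 4922 lower genes on the deposited TPM, 1831 higher and 373 lower relative to the median gene, and 373 lower both ways. Among others, it ended the calls of DROSHA, AHNAK, PLEC, DMD, CTSF, PPT1, ENG, ITGA6 and MYH13 relative to the median gene. On the deposited TPM it ended those of SHFM1, APOE and KRT1, among others. The counts lower both ways were then 0 for cytolinkers and for sarcomere genes, and 1 each for collagens, interferon response and lysosomal genes.

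Without read depth, low TPM cannot be told from few reads, and values listed at 0 are no proof of absence.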
